A study of Mus musculus with 23 samples.

Results

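The contactins are neuronal cell-adhesion molecules of the immunoglobulin superfamily that are anchored to the membrane by a lipid tail, and the contactin-associated proteins are neurexin-like transmembrane proteins that several of them bind. The genes described here are 6 contactins (Cntn1, Cntn2, Cntn3, Cntn4, Cntn5 and Cntn6) and 3 contactin-associated proteins (Cntnap1, Cntnap2 and Cntnap4). They were chosen by symbol and matched to the Ensembl gene IDs of the count table, which gave 9 of 45706 genes. After a filter on low counts 18823 genes were left, and 9 of these 9 were among them.

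Polyadenylated RNA of mouse hippocampal neurons was sequenced in 23 libraries from 3 populations, named CamK, Grik and SST by the sample titles. The labels describe CamK and Grik cells as excitatory pyramidal cells and SST cells as somatostatin-positive interneurons, and the series' design text speaks of CA1, CA3 and SST+ cells. Each population was sampled as wild type for SLM2 (SLM2 WT) and as conditional knockout (SLM2 cKO), with 4 libraries in each group except CamK cKO, which has 3. The question posed by the design is how gene expression differs between the genotypes in each population. SLM2 is an RNA-binding splicing regulator encoded by Khdrbs3. The Cre driver, the age of the mice, the deleted exons and the way cells were isolated are not given in the sources used here. Libraries of a group are separate samples, but the labels do not say that they came from separate animals, so p-values measure the spread between these samples.

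At the nodes of Ranvier, contactin-1 and the protein of Cntnap1 (Caspr) form the axonal side of the paranodal junction with the myelinating glial cell. Next to it, at the juxtaparanode, contactin-2 and the protein of Cntnap2 (Caspr2) hold the voltage-gated potassium channels of the Kv1 family in place. The other contactins are best known from neurite growth and the formation of particular circuits, and Cntnap4 is known for a role in the output synapses of interneurons. Contactins, Cntn2 among them, are also made by some glial cells.

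The libraries held 87612006 to 112993538 reads in genes. Khdrbs3, the targeted gene, measured in CPM (counts per 1000000 gene reads, scaled by TMM factors), was 367, 356, 413 and 356 CPM in the CamK WT libraries and 294, 291 and 249 CPM in those labelled cKO. In Grik it was 327, 330, 347 and 338 CPM in WT and 412, 439, 396 and 409 CPM in the libraries labelled cKO. In SST it was 134, 124, 123 and 140 CPM in WT and 87.9, 82.6, 98.8 and 106 CPM in cKO. The libraries labelled cKO were therefore all below WT in CamK and SST and all above WT in Grik, against the label. In edgeR's quasi-likelihood test only the SST difference passed (log2 change -0.47 ± 0.08 (SE), Benjamini-Hochberg adjusted p = 0.0309), while CamK (-0.42 ± 0.08, adjusted p = 0.114) and Grik (0.30 ± 0.07, adjusted p = 0.499) did not. The related genes Khdrbs2 and Khdrbs1 were higher in the CamK libraries labelled cKO (log2 change 1.52 and 0.59, edgeR adjusted p = 3.02e-07 and 0.0111). They were also higher in those of Grik (2.17 and 0.56, edgeR adjusted p = 1.11e-10 and 9.14e-03). In SST neither passed (0.58 and 0.10, edgeR adjusted p = 0.3 and 0.874).

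Marker genes of the labelled cell types were read next. The summed CPM of 5 pyramidal cell genes was 5451 to 7843 in CamK and Grik libraries and 735 to 1046 in SST libraries, while 3 interneuron genes (Gad1, Gad2 and Slc32a1) summed to 3735 to 5790 CPM in SST and 41.2 to 135 CPM elsewhere. A list of 4 CA1 genes summed to 1118 to 1531 CPM in CamK WT, 62.0 to 95.7 CPM in Grik WT and 392 to 406 CPM in SST WT, and a list of 3 CA3 genes to 156 to 184, 814 to 882 and 83.4 to 115 CPM. Most of the CA1 sum in SST WT was Mpped1, with a mean of 334 CPM beside 531 CPM in CamK WT. The other CA1 genes, Wfs1, Fibcd1 and Pou3f1, were at 24.4, 36.5 and 4.48 CPM in SST WT and 356, 242 and 152 CPM in CamK WT. Dentate granule genes, 3 in the list, summed to 97.9 to 259 CPM in CamK WT, 140 to 150 CPM in Grik WT and 27.6 to 38.8 CPM in SST WT. A list of 4 genes of other interneurons (Pvalb, Vip, Cck and Lamp5) had its lowest sum in SST WT, at 135 to 204 CPM. The sum was 364 to 455 CPM in CamK WT and 286 to 409 CPM in Grik WT. Its genes did not share a direction. Mean Pvalb was 140 CPM in SST WT, against 1.05 CPM in either pyramidal WT group. Cck and Lamp5 were lowest in SST WT, with mean Cck at 15.3 CPM there, 365 CPM for CamK WT and 299 CPM for Grik WT. Vip was highest in Grik WT, with a mean of 10.5 CPM. The sum therefore does not rank the populations by RNA of other interneurons. Sst itself ranged from 16.0 to 172% of its mean among the SST WT libraries. Genes of oligodendrocytes were present unevenly: 8 of them summed to 159 to 242 CPM in CamK WT, 881 to 1246 CPM in Grik WT and 398 to 791 CPM in SST WT. In such pooled RNA, fewer cells of a type and less RNA per cell cannot be told apart.

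Per kilobase of exon, Cntn1 and Cntnap1 together made up most of the RNA of the 9 genes in each population. Among WT libraries, the mean share of Cntn1 in the summed CPM per kilobase was 39.7% ± 1.16 (SD, n = 4) in CamK, 41.2% ± 2.15 in Grik and 30.1% ± 2.51 in SST. The share of Cntnap1 was 30.2% ± 1.49, 38.2% ± 2.45 and 31.9% ± 3.12 in the same order. Cntnap2 followed with 15.3% in CamK, 11.0% in Grik and 14.7% in SST. Cntn2 held 5.74%, 4.44% and 6.78%, and the remaining contactins lay between 0.301% (Cntn5 in Grik) and 3.66% (Cntn3 in CamK). The clearest change in make-up was that of Cntnap4, whose share was 1.05% ± 0.24 in CamK, 1.32% ± 0.18 in Grik and 11.5% ± 1.43 in SST. Summed over the 6 contactins, the level was 34.3 ± 0.999 CPM per kilobase in CamK, 45.6 ± 1.91 in Grik and 45.4 ± 6.32 in SST. The 3 contactin-associated proteins summed to 29.9 ± 1.43, 46.8 ± 4.19 and 62.8 ± 7.36 CPM per kilobase. These values depend on the exon length used, since 20 of 27 mean levels moved by more than their SD when the longest transcript took the place of the union of exons. The contactin sums were then 54.3 ± 1.46, 73.4 ± 3.13 and 71.4 ± 10.3 CPM per kilobase in CamK, Grik and SST, and those of the contactin-associated proteins 32.0 ± 1.59, 50.4 ± 4.54 and 70.0 ± 8.52, so that the families met in SST.

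**Figure D1:**
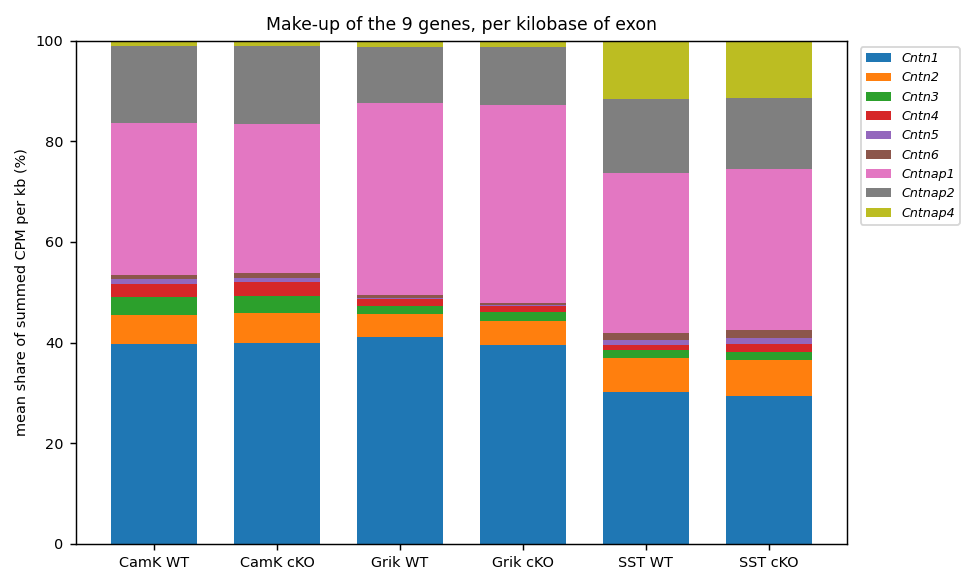
Mean share (%) of each of the 9 genes in their summed CPM per kilobase of exon, stacked to 100% for the 6 groups of libraries. Cntn1 and Cntnap1 fill most of every bar, and Cntnap4 is a thin band in CamK and Grik and 11.5% of the bar in SST WT.

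Cntn1 (ENSMUSG00000055022, GRCm38 chr15:92051165-92341967, plus strand) encodes the paranodal contactin that also binds receptor tyrosine phosphatases and sodium channel beta subunits. It stood at 246, 241, 239 and 235 CPM in CamK WT, at 364, 335, 374 and 359 CPM in Grik WT and at 246, 342, 287 and 356 CPM in SST WT. Every Grik WT library was above every CamK WT library, and the SST WT libraries spread from the CamK level to the Grik level. The log2 difference between Grik and CamK was 0.58 ± 0.08 (SE; edgeR adjusted p = 5.03e-06), and that between SST and CamK was 0.36 ± 0.08 (adjusted p = 7.42e-04). SST was lower than Grik by a smaller margin, with a log2 difference of -0.22 ± 0.08 (adjusted p = 0.0295). That last call was lost without SST WT replicate 1 (-0.13, adjusted p = 0.162), without SST WT replicate 3 (-0.19, adjusted p = 0.0906) or without Grik WT replicate 5 (-0.20, adjusted p = 0.0639). Without TMM scaling the difference was -0.10.

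Cntn1 was set beside the summed oligodendrocyte genes. Between WT groups both were lowest in CamK and highest in Grik. Within groups they did not run together in one way. In CamK the highest sum was in the library with the highest Cntn1, both in WT (replicate 2, 242 CPM) and in cKO (replicate 5, 311 CPM). In SST WT, replicates 1 and 3, with the lower Cntn1 levels, had sums of 398 and 505 CPM, and replicates 2 and 5 had 791 and 708 CPM. In Grik WT the order was the other way, with the highest sum (1246 CPM) in replicate 4, which had the lowest Cntn1, and a sum of 918 CPM in replicate 5, which had the highest. In SST cKO the highest sum (1261 CPM) was in replicate 7, with Cntn1 at 298 CPM, and the highest Cntn1 was in replicate 5 (335 CPM, sum 1126 CPM). The part of oligodendrocyte RNA in the Cntn1 differences was not tested.

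Cntn2 (ENSMUSG00000053024, chr1:132509427-132543256, minus strand), the juxtaparanodal contactin, was highest in SST. Its WT libraries lay between 31.2 and 38.2 CPM in CamK, 33.2 and 42.6 CPM in Grik and 61.8 and 76.3 CPM in SST. The SST range did not meet either of the others, and the CamK and Grik ranges overlapped. The difference from CamK was 0.99 ± 0.13 in log2 (edgeR adjusted p = 6.90e-07), and that from Grik was 0.83 ± 0.13 (adjusted p = 8.08e-06). Grik and CamK differed by 0.15 ± 0.13 (95% interval -0.12 to 0.43, adjusted p = 0.370). The oligodendrocyte sums in CPM were 159 to 242 in CamK WT, 398 to 791 in SST WT and 881 to 1246 in Grik WT. Their part in the Cntn2 differences was not tested.

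Cntn3 (ENSMUSG00000030075, chr6:102162655-102573101, minus strand) and Cntn4 (ENSMUSG00000064293, chr6:105677660-106699310, plus strand) encode contactins of the subgroup that binds the receptor phosphatase Ptprg, and contactin-4 also binds the amyloid precursor protein. Cntn3 was highest in CamK, at 14.6 to 17.1 CPM in WT libraries, against 9.46 to 10.5 CPM in Grik and 9.50 to 14.6 CPM in SST. Grik lay below CamK in every library (log2 -0.68 ± 0.13, edgeR adjusted p = 1.70e-04), and SST was lower with its highest library just touching the CamK range (-0.46 ± 0.13, adjusted p = 3.43e-03). SST and Grik differed by 0.21 ± 0.13, which did not pass (95% interval -0.06 to 0.48, adjusted p = 0.174).

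Cntn4 gave no call between WT populations. The libraries lay at 12.5 to 15.0 CPM in CamK, 9.34 to 12.5 CPM in Grik and 7.92 to 15.1 CPM in SST. The ranges overlapped in each pair, and SST WT replicate 2 alone, at 15.1 CPM, stood above the next SST WT library at 9.98 CPM. The log2 differences were -0.30 ± 0.18 between Grik and CamK (edgeR adjusted p = 0.180), -0.34 ± 0.18 between SST and CamK (adjusted p = 0.0955) and -0.04 ± 0.18 between SST and Grik (adjusted p = 0.851). Without SST WT replicate 2 the difference between SST and CamK was -0.58 and was called (adjusted p = 0.00319). Among the SST WT libraries, replicate 2 also had the lowest sum of Sst, Elfn1 and Grin3a, at 575 CPM beside 989 to 2148 CPM. It had the highest sums of oligodendrocyte genes (791 CPM), astrocyte genes (105 CPM) and endothelial genes (27.3 CPM). It also had the highest Cntn2, Cntn5, Cntn6, Cntnap1 and Cntnap4, and shared the highest Cntnap2 with replicate 5 (180 CPM in each). Cntn1 and Cntn3 were highest in replicate 5. The part of these cells was not tested.

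Cntn5 (ENSMUSG00000039488, chr9:9660891-10904775, minus strand) and Cntn6 (ENSMUSG00000030092, chr6:104492790-104863406, plus strand) had the lowest CPM per kilobase of the 6 contactins in CamK and Grik WT. In SST WT, Cntn5 had the lowest mean (1.03 ± 0.12), and the libraries of Cntn5 and of Cntn6 (1.46 ± 0.29) both overlapped those of Cntn4 (1.23 ± 0.38). Contactin-5 is known from synapse formation in sensory pathways, and contactin-6 from cerebellar and cortical wiring and as a ligand of Notch1. Cntn5 stood at 3.52, 4.41, 2.28 and 2.94 CPM in CamK WT, at 1.23, 1.44, 1.25 and 1.11 CPM in Grik WT and at 4.78, 5.17, 4.86 and 3.86 CPM in SST WT. All Grik libraries were below all others, while CamK and SST met between 3.86 and 4.41 CPM. Grik was at 0.382 of the CamK level (log2 -1.39 ± 0.17, edgeR adjusted p = 4.79e-07), and SST was 3.71-fold above Grik (1.89 ± 0.17, adjusted p = 9.40e-10). SST was 1.42-fold above CamK (0.50 ± 0.17, adjusted p = 0.0108), a call that was lost without CamK WT replicate 4 (0.36, adjusted p = 0.0607). Cntn5 had 93 to 558 reads per library, the lowest range of the 9 genes. Its counting error is therefore the largest, except in CamK WT replicate 2, where Cntn6 had 261 reads beside 320 for Cntn5.

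Cntn6 separated SST from both pyramidal populations. It stood at 2.87, 4.46, 2.58 and 3.62 CPM in CamK WT, at 2.93, 3.51, 3.75 and 2.84 CPM in Grik WT and at 9.13, 12.3, 8.20 and 8.45 CPM in SST WT. The lowest SST library was above the highest library of the other populations, and CamK and Grik overlapped throughout. SST was 2.81-fold above CamK (log2 1.49 ± 0.17, edgeR adjusted p = 4.86e-08) and 2.92-fold above Grik (1.55 ± 0.17, adjusted p = 2.77e-08). Grik and CamK differed by -0.05 ± 0.17 (95% interval -0.41 to 0.30, adjusted p = 0.832).

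Cntn1 and Cntn5 moved in opposite directions between the 2 pyramidal populations, so for each the sequence upstream of its outermost annotated start is shown, as RefSeq gives them for GRCm38.p6. Each run is 250 bases, 5′ to 3′ on the strand of the gene, and ends at the base before the start. Capitals mark the dinucleotide CG. Neither run overlaps an annotated exon.
Cntn1, chr15:92050915-92051164, plus strand: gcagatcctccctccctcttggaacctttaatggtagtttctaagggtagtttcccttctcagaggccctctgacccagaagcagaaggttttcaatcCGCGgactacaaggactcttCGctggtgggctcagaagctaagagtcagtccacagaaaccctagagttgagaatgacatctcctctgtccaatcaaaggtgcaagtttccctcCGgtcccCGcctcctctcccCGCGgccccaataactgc
Cntn5, chr9:10904776-10905025, minus strand: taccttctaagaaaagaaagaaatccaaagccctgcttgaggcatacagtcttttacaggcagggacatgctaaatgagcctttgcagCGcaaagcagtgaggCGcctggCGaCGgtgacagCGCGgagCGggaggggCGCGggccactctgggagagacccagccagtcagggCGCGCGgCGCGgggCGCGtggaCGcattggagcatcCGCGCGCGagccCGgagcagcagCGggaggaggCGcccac
The Cntn1 run has 53.6% G and C and 7 CG, and the Cntn5 run 64.8% and 24. Over 32851 such windows of RefSeq genes the median was 52.4% and 6 CG, with a quartile range of 2 to 16 CG. The motifs GGGCGG (in 32.7% of windows), TATAAA (12.4%) and TAATTA (4.84%), searched on both strands, were in neither run. RefSeq gives 3 start windows for Cntn1 and 2 for Cntn5, and among those not shown a window of Cntn1 holds TATAAA and that of Cntn5 holds GGGCGG. RefSeq windows were matched for 7 of the 9 genes, and those of Cntnap1 and Cntnap4 were not used here.

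**Figure D2:**
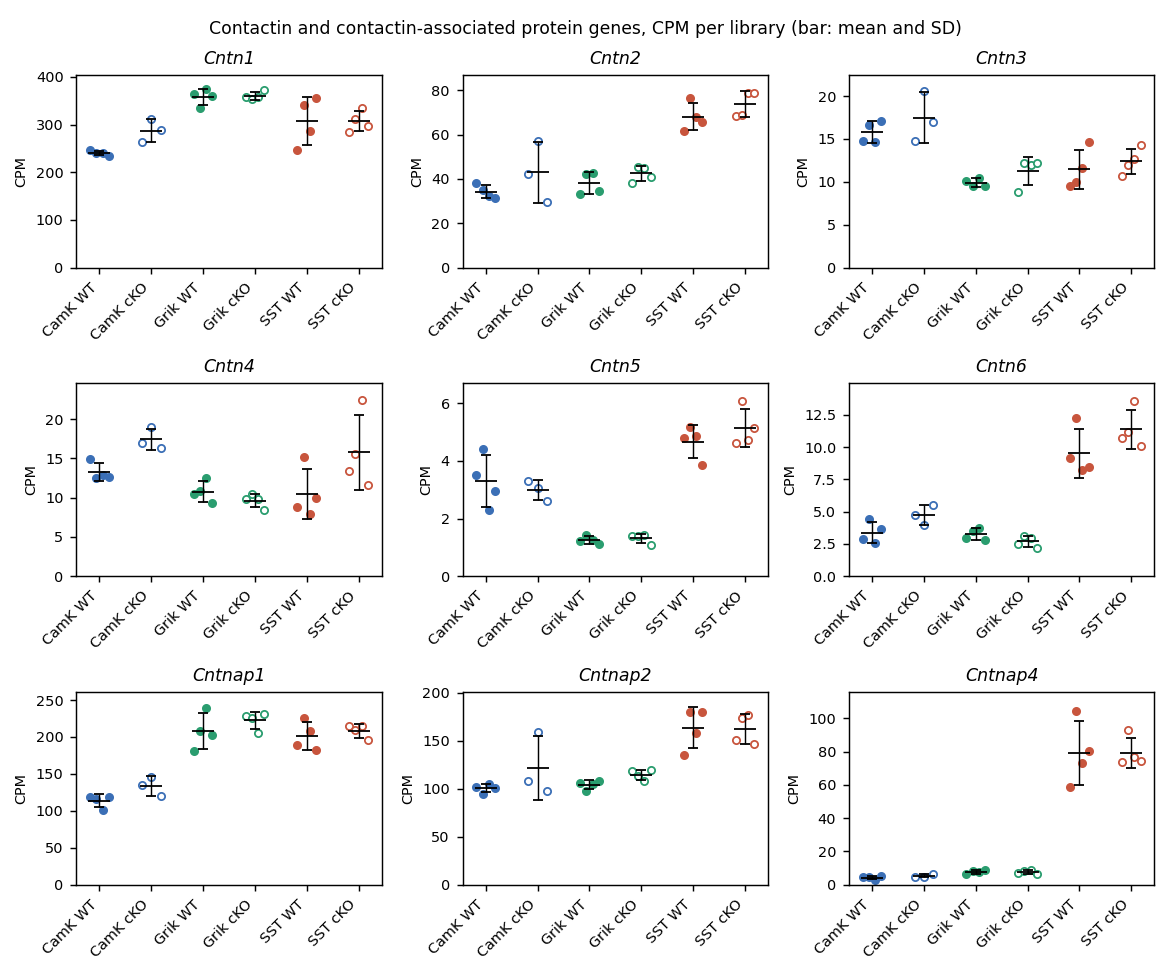
CPM of each gene in each of the 23 libraries (circles, filled for WT and open for cKO) with the group mean and SD as bars, on axes that start at 0. Cntnap4 sits between 58.6 and 105 CPM in SST WT and below 10 CPM in CamK and Grik, and Cntn5 is lowest in Grik.

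Cntnap1 (ENSMUSG00000017167, chr11:101170523-101190724, plus strand), the paranodal partner of contactin-1, was lower in CamK than in the other populations. It stood at 119, 116, 101 and 119 CPM in CamK WT, at 180, 209, 240 and 203 CPM in Grik WT and at 189, 225, 208 and 183 CPM in SST WT. Every CamK library was below every other WT library, and Grik and SST overlapped. The log2 difference from CamK was 0.87 ± 0.08 in Grik (edgeR adjusted p = 8.18e-09) and 0.82 ± 0.08 in SST (adjusted p = 6.28e-09), while SST and Grik differed by -0.05 ± 0.08 (95% interval -0.22 to 0.13, adjusted p = 0.668). Cntnap1 shares 233 exon bases with Plekhh3 on the opposite strand, and the strand setting of the counting is not given in the sources used here. Plekhh3 had 335 to 1517 reads per library against 8945 to 23412 for Cntnap1. The summed oligodendrocyte genes were likewise lower in CamK WT than in Grik WT and SST WT, and their part was not tested.

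Cntnap2 (ENSMUSG00000039419, chr6:45059357-47304213, plus strand), one of the longest genes of the mouse genome and the partner of contactin-2, was highest in SST. Its WT libraries lay at 94.8 to 105 CPM in CamK, 97.2 to 108 CPM in Grik and 135 to 180 CPM in SST. CamK and Grik overlapped closely, and no SST library reached down to them. SST was 1.63-fold above CamK (log2 0.70 ± 0.11, edgeR adjusted p = 6.59e-06) and 1.57-fold above Grik (0.65 ± 0.11, adjusted p = 1.98e-05). Grik and CamK differed by 0.05 ± 0.11 (95% interval -0.18 to 0.28, adjusted p = 0.739).

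Cntnap4 (ENSMUSG00000031772, chr8:112570043-112882717, plus strand) had the largest difference of the 9 genes. It stood at 4.52, 4.42, 2.83 and 5.28 CPM in CamK WT, at 6.31, 8.05, 7.51 and 8.75 CPM in Grik WT and at 58.6, 105, 73.1 and 80.4 CPM in SST WT. The lowest SST library was far above the highest Grik library, and all Grik libraries were above all CamK libraries. SST was 18.5-fold above CamK (log2 4.21 ± 0.19, edgeR adjusted p = 1.37e-14), a larger absolute change than in 97.5% of all genes tested, and 10.3-fold above Grik (3.37 ± 0.18, adjusted p = 2.53e-13). Grik was 1.79-fold above CamK (0.84 ± 0.18, adjusted p = 5.01e-04). Cntnap4 shares 503 exon bases with the antisense gene Gm45904, and Cntn5 shares 290 with Gm32710, both on the opposite strand, with no values analysed here for these partners.

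The level of Cntnap4 outside SST was set beside that of genes that define interneurons. As a percentage of the SST WT mean, Cntnap4 was at 5.39% in CamK WT (range 3.58 to 6.68%) and at 9.67% in Grik WT (7.97 to 11.1%). Gad1 was at 2.30% and 1.89%, Gad2 at 1.23% and 0.693%, Slc32a1 at 1.55% and 0.821%, Sst at 0.560% and 0.815%, Elfn1 at 3.10% and 0.606% and Grin3a at 17.1% and 4.44%. In Grik WT the lowest Cntnap4 library was above the highest library of each of these 6 genes. In CamK WT this held for 5 of them, and Grin3a lay above Cntnap4. These 6 genes were all highest in SST, and genes of other interneurons went both ways. Mean Vip was 10.5 CPM in Grik WT and 0.610 CPM in SST WT, Cck 299 and 15.3 CPM, and Lamp5 32.7 and 9.18 CPM. Pvalb was at 1.05 CPM in Grik WT and 140 CPM in SST WT. The part of interneuron RNA in the Cntnap4 levels was not tested. Cntn6 kept 35.6% and 34.2% of its SST level in CamK WT and Grik WT, Cntn5 70.5% and 26.9%, and Cntn2 50.4% and 56.1%.

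**Figure D3:**
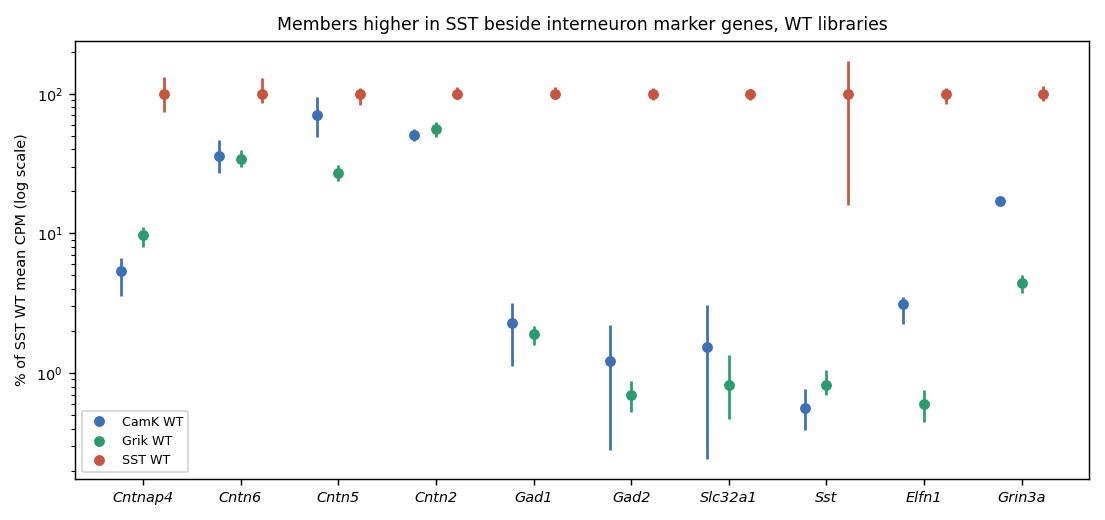
Level in WT libraries as a percentage of the SST WT mean CPM, on a log axis, for the 4 genes Cntnap4, Cntn6, Cntn5 and Cntn2 and for the interneuron genes Gad1, Gad2, Slc32a1, Sst, Elfn1 and Grin3a; points are group means and lines run from the lowest to the highest library. Cntnap4 lies at 5.39% in CamK and 9.67% in Grik, below the contactins and above the interneuron genes except Grin3a in CamK (17.1%).

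Counted over the 9 genes, 3 were higher and 2 lower in Grik than in CamK (adjusted p under 0.05), where 21.1% of all genes tested were higher, 20.9% lower and 42.0% called in either direction. Between SST and CamK, 7 were higher and 1 lower, against 30.5% and 29.5% of all genes and 60.1% in either direction. Between SST and Grik, 5 were higher and 1 lower, against 29.2% and 28.1% of all genes and 57.3% in either direction. The median log2 difference of the 9 genes was 0.05, 0.70 and 0.65 in these comparisons, beside -0.01, 0.02 and 0.03 over all genes. The 3 comparisons share their WT groups, so their counts are not independent of each other. Without TMM scaling the median over all genes between SST and Grik moved from 0.03 to 0.15, and the uncalled differences of Cntn4 and Cntnap1 between these populations and of Cntnap2 between Grik and CamK turned sign.

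**Figure D4:**
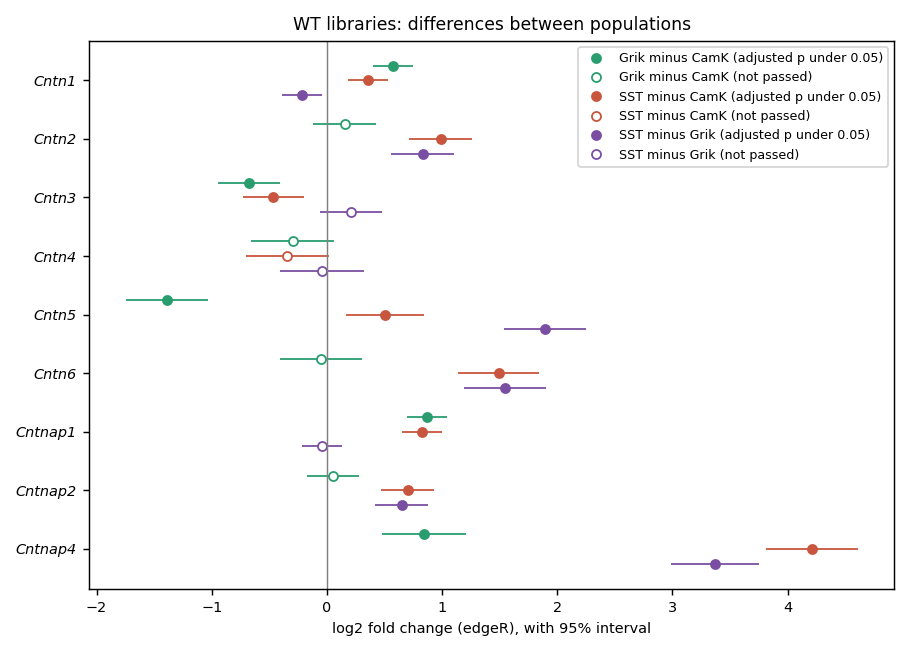
Log2 fold change between WT populations for each gene (edgeR) with its 95% interval; filled points have an adjusted p under 0.05. Cntnap4 lies at 4.21 for SST minus CamK and 3.37 for SST minus Grik, and Cntn5 at -1.39 for Grik minus CamK.

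The order of the 6 group means was then read with the libraries labelled cKO included. Cntnap4, Cntn6 and Cntn2 had both SST groups on top, with a gap in CPM between the lowest SST library and the highest library of the next group. Cntn5 had both Grik groups at the bottom (1.32 and 1.26 CPM), below a gap to the CamK groups. Cntn1 had the CamK WT mean at the bottom, with a gap to the libraries of CamK cKO, the next group, but SST WT replicate 1 (246 CPM) lay within the CamK WT range. Cntnap1 had both CamK groups at the bottom, below every library of the other groups. Neighbours in the order of Cntn4 overlapped throughout, from 17.4 CPM in CamK cKO to 9.61 CPM in Grik cKO.

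Between libraries labelled cKO and WT, edgeR called 0 of the 9 genes in any population, and DESeq2 and limma-voom also called 0. Over all genes edgeR called 0.0106% in CamK, 0.0106% in Grik and 0.0106% in SST. At an unadjusted p under 0.05, edgeR had 6 of the 9 genes higher in CamK, where 3.61% of all genes were higher by this measure, and the median log2 difference of the 9 genes was 0.28 beside -0.00 over all genes. In Grik it was 0 genes, against 2.51%, and a median of 0.07. In SST it was 1 gene, against 3.36%, and a median of 0.11. None was lower at this p in any population. The cKO direction is drawn from the labels, which Khdrbs3 goes against in Grik, while Khdrbs2 and Khdrbs1 rose there as in CamK.

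In CamK the 6 genes were Cntn1, Cntn2, Cntn4, Cntn6, Cntnap1 and Cntnap2. Cntn1 stood at 262, 312 and 288 CPM in the cKO libraries, all above the WT range of 235 to 246 CPM (log2 0.26 ± 0.09, edgeR adjusted p = 0.613). Cntnap1 was at 135, 146 and 120 CPM, just above the WT maximum of 119 CPM (0.23 ± 0.09, edgeR adjusted p = 0.665). Cntn4 was at 17.0, 19.0 and 16.4 CPM, above the WT maximum of 15.0 CPM (0.39 ± 0.19, edgeR adjusted p = 0.699). These 3 of 9 genes had all cKO libraries above all WT libraries, against 3.35% of all genes, and none had them all below, where 6.75% of all genes had groups apart in either direction.

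For the other 3, the ranges overlapped. Cntn6 was at 4.78, 3.96 and 5.53 CPM in CamK cKO against 2.58 to 4.46 CPM in WT (log2 0.49 ± 0.18, edgeR adjusted p = 0.647). Cntn2 was at 42.0, 57.0 and 29.7 CPM and Cntnap2 at 108, 159 and 97.1 CPM, so that replicate 5 was the high library in both and replicate 6 lay within or below the WT range. Without CamK cKO replicate 5 the log2 difference of Cntn2 fell from 0.32 to 0.07 and that of Cntnap2 from 0.28 to 0.03, and the number of genes higher at an unadjusted p under 0.05 went from 6 to 1. Without CamK WT replicate 4 the number was 3. Replicate 5 also had the highest oligodendrocyte sum of the 7 CamK libraries, at 311 CPM, beside 234 and 261 CPM in the other cKO libraries and 159 to 242 CPM in WT, and the highest astrocyte sum, at 31.5 CPM. It also had the highest sum of CA1 genes, at 1668 CPM beside 1118 to 1531 CPM in WT, and the lowest sum of CA3 genes, at 103 CPM beside 156 to 184 CPM. A list of 4 endothelial genes summed to 2.44 to 4.22 CPM in the cKO libraries, all above the 0.915 to 1.82 CPM of WT. The part of these cells in the differences was not tested.

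Most of the 9 genes are long. In CamK, among 2451 genes that span 100 kb or more, 5.88% were higher in cKO at an unadjusted p under 0.05, with a median log2 difference of 0.05, beside 3.29% and -0.01 among 16269 shorter genes. Of the 9 genes, Cntn2 (33.8 kb) and Cntnap1 (20.2 kb) are shorter than that, and the others span 291 kb (Cntn1) to 2245 kb (Cntnap2). The part of gene length was not tested.

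In Grik, the 9 log2 differences lay between -0.28 ± 0.17 (Cntn6) and 0.19 ± 0.13 (Cntn3), with no gene whose groups were apart, against 4.59% of all genes in either direction and 2.43% with all cKO above all WT. Cntn1 was at 358, 353, 358 and 372 CPM in the libraries labelled cKO, within the WT range, and its 95% interval ran from -0.17 to 0.18. In SST no gene had its groups apart either, against 2.70% of all genes in either direction and 1.43% with all cKO above all WT. Cntnap4 was at 74.0, 92.8, 76.9 and 74.1 CPM in SST cKO, within the WT range of 58.6 to 105 CPM, with a log2 difference of 0.01 and a 95% interval of -0.34 to 0.35. The 1 gene with an unadjusted p under 0.05 was Cntn4, at 13.4, 15.6, 22.4 and 11.6 CPM in cKO against 8.80, 15.1, 7.92 and 9.98 CPM in WT (0.59 ± 0.18, edgeR adjusted p = 0.833). Its groups overlapped through WT replicate 2, and leaving out single libraries gave differences of 0.37 (without cKO replicate 5, the highest library) to 0.80 (without WT replicate 2, edgeR adjusted p = 0.145).

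**Figure D5:**
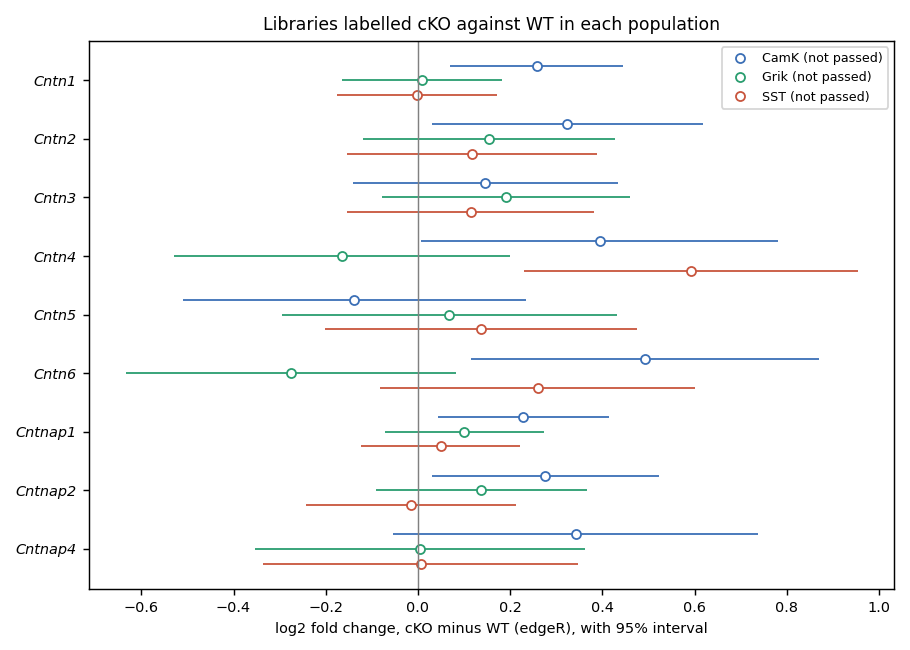
Log2 fold change of libraries labelled cKO against WT for each gene in CamK, Grik and SST (edgeR) with its 95% interval; open points did not pass an adjusted p of 0.05, and no point passed. In CamK 8 of 9 points lie to the right of 0, and the interval of Cntn4 in SST starts at 0.23.

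The cKO effects were compared between populations in the same fit. No gene of the 9 passed in edgeR, against 0.00531% of all genes for Grik minus CamK, 0% for SST minus CamK and 0.0106% for SST minus Grik, and DESeq2 and limma-voom passed none of the 9 either. At an unadjusted p under 0.05 in either direction there were 2 of the 9 genes for Grik minus CamK, against 6.50% of all genes, 1 for SST minus CamK, against 7.85%, and 2 for SST minus Grik, against 3.86%. At this p, the effect on Cntn6 was lower in Grik than in CamK (log2 difference of effects -0.77, edgeR adjusted p = 0.708) and higher in SST than in Grik (0.54, edgeR adjusted p = 1). The effect on Cntn4 was lower in Grik than in CamK (-0.56, edgeR adjusted p = 0.759) and higher in SST than in Grik (0.76, edgeR adjusted p = 1). Cntn1 had a smaller effect in SST than in CamK (-0.26, edgeR adjusted p = 0.630). The Cntn4 and Cntn6 values use the Grik libraries as labelled, and Khdrbs3 goes against that label. In Grik the effects were -0.17 (Cntn4) and -0.28 (Cntn6), beside 0.39 and 0.49 in CamK and 0.59 and 0.26 in SST. Exchanging the Grik labels would turn the sign of the Grik effects. Both effects would still be lower in Grik than in CamK, and that on Cntn4 higher in SST than in Grik, by smaller margins. For Cntn6 the SST and Grik effects would then be nearly equal, so that direction rests on the label. The exchange would also turn the Grik rises of Khdrbs2 (log2 2.17) and Khdrbs1 (0.56) into falls, beside rises of 1.52 and 0.59 in CamK. Whether the labels are exchanged was not tested. The comparisons also share libraries.

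A list of 30 known partners and neighbours of the contactins was followed in the same tests, and 30 of 30 genes passed the filter. Between Grik and CamK, 12 were higher and 3 lower, against 21.1% and 20.9% of all genes tested. Kcna1, a Kv1 channel of the juxtaparanode, led the higher ones (log2 1.21 ± 0.08, edgeR adjusted p = 8.72e-12), before Ptprg, the phosphatase bound by contactins 3 to 6 (0.74 ± 0.10), and Aplp2, a relative of the amyloid precursor protein (0.72 ± 0.09). The 3 lower ones were the scaffold genes Dlg1 (-0.63 ± 0.09) and Dlg4 (-0.52 ± 0.07) and Adam22, a receptor of Lgi1 (-0.29 ± 0.09).

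Between SST and CamK, 15 of the 30 partners were higher and 9 lower, against 30.5% and 29.5% of all genes. Tnc, a matrix protein that binds contactin-1, was 2.96 ± 0.24 higher in log2, Notch1 was 2.44 ± 0.43 higher and Ptprz1, a phosphatase bound by contactin-1, was 1.77 ± 0.40 higher, all with an edgeR adjusted p of 9.52e-04 or less. These 3 are also genes of glial cells, and the summed level of 5 astrocyte genes was 9.01 to 21 CPM in CamK WT, 50.9 to 60.9 CPM in Grik WT and 53.6 to 105 CPM in SST WT. The endothelial genes summed to 0.915 to 1.82 CPM in CamK WT, 3.08 to 4.19 CPM in Grik WT and 7.22 to 27.3 CPM in SST WT. Notch1 varied widely in SST WT, at 9.03 ± 6.34 CPM (SD). The part of astrocyte or endothelial RNA was not tested. The largest falls were those of Kcna4 (-2.40 ± 0.20), Dlg4 (-1.45 ± 0.07) and Kcnab2, the beta subunit of Kv1 channels (-1.29 ± 0.08).

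Between SST and Grik, 10 of the 30 partners were higher and 12 lower, against 29.2% and 28.1% of all genes. Tnc (2.28 ± 0.23), Notch1 (1.40 ± 0.41) and Epb41l3, which links contactin-associated proteins to the cytoskeleton (1.27 ± 0.08), led the higher ones. Kcna4 (-2.25 ± 0.20), Lgi1 (-1.38 ± 0.08) and Kcnab2 (-1.21 ± 0.08) led the lower ones. The Kv1 channel genes of the list did not share a direction: Kcna1 (-0.86 ± 0.08, edgeR adjusted p = 8.46e-10) was lower in SST than in Grik, as Kcna4 was, while Kcna2 (0.72 ± 0.08, edgeR adjusted p = 2.59e-08), named here after its value was seen, was higher. In the cKO comparisons 0 of the 30 passed in edgeR, and DESeq2 and limma-voom also passed 0. At an unadjusted p under 0.05 in either direction there were 5 in CamK, against 7.05% of all genes, 3 in Grik, against 4.88%, and 2 in SST, against 5.85%.

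Across the 23 libraries, Cntn2 varied most like Cntnap2 among the 9 genes (Pearson r = 0.912 of log2 CPM), while Cntn1 and Cntnap1, the paranodal pair, had r = 0.778. Cntn3 and Cntnap1 ran in opposite directions (r = -0.737). Over all genes with a mean of at least 1 CPM, the nearest to Cntnap4 were Kcna6 (r = 0.994) and Moxd1 (r = 0.993), and the nearest to Cntn2 were L1cam (r = 0.958) and Cacna2d3 (r = 0.953). Cntn5 was nearest to Fhod3 (r = 0.975) and Cux2 (r = 0.970), Cntn6 to Baiap2l2 (r = 0.970) and Igsf3 (r = 0.969), and Cntnap1 to Adgrg1 (r = 0.960) and Golim4 (r = 0.959). Cntn1 was nearest to Astn1 (r = 0.947) and Slc41a2 (r = 0.941), Cntnap2 to Nrxn3 (r = 0.946) and Clstn3 (r = 0.935), and Cntn3 to Parm1 (r = 0.913) and Galnt13 (r = 0.904). Cntn4 had the weakest nearest genes, Wdr54 (r = 0.783) and Atp1b2 (r = 0.718). These values describe the same 23 libraries in 3 populations, so any gene that differs between the populations in the same way scores high.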

How the data were processed

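Counts, as deposited, are whole reads by Ensembl gene with a column for each library, made by the authors with STAR and Trimmomatic on GRCm38, per the submitters' processing notes; tool versions and the strand setting are not given in the sources used here. Rows that name no gene (12.4 to 18.4% of reads) were left out. Positions, spans and exon lengths are from GENCODE M21, which matched 45143 IDs.

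Counts were filtered with filterByExpr over the 6 groups, scaled by TMM and fitted in edgeR 4.0.16 (R 4.3.3) with robust glmQLFit over all 23 libraries (17 residual degrees of freedom). The glmQLFTest p-values were adjusted by Benjamini-Hochberg over the 18823 genes of each comparison, with a threshold of 0.05. SE is the log2 change divided by the square root of F. CPM are counts per 1000000 gene reads computed here from the deposited counts. The fit was tested on simulated data. Alternatives were relative log expression (RLE) scaling, other filters, DESeq2 1.42.0, limma-voom 3.58.1, fewer populations in the fit, a replicate block, leaving out each library, and, for levels, transcript length and unscaled CPM.

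The genes, partner list and marker lists were chosen with earlier results of these data known. Named partners are the 3 called genes with the largest change in each direction per WT comparison, and named neighbours the 2 of highest r per gene. Replicates differed by more than sampling noise in every pair. Alternative splicing was not analysed here.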

Additional observations from a re-analysis of the deposited data

Results flagged for a closer look

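In 45 tests of 4 libraries (each gene in each group of that size), 4 groups had 1 library far from the other 3 by Dixon's ratio, where chance gives 2.25. Cntn3 was low in Grik cKO replicate 1, at 8.84 CPM, where the group mean was 11.3 CPM. Cntn4 was high in CamK WT replicate 2, at 15.0 CPM. Cntn5 was low in Grik cKO replicate 4, at 1.07 CPM. Cntnap4 was high in SST cKO replicate 4, at 92.8 CPM beside 74.0 to 76.9 CPM.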

How the results depend on the processing

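Of 405 values for the 9 genes in WT comparisons, 389 kept their direction and side of the threshold under the alternatives, 5 lost a call, 5 gained one and 6 turned sign. Of 396 cKO values 31 turned sign, and none of 112 values did for differences of effects, which cover only the 5 of 27 differences with an unadjusted p under 0.05. None of the 37 turned values passed the threshold. The replicate block cost the Cntn1 call between SST and Grik (-0.19, adjusted p = 0.0638) and gave calls for Cntn2 between Grik and CamK (0.30, adjusted p = 0.0397), Cntn3 between SST and Grik (0.31, adjusted p = 0.0148) and Cntn4 between SST and CamK (-0.39, adjusted p = 0.0173). Same-numbered libraries did not clearly deviate together (correlations -0.10 to 0.13, beside -0.19 to 0.16 for other pairs). With only 2 or 3 such pairs per comparison, this cannot show whether the numbers pair samples. Fitted with the compared populations alone, Cntn4 was called between Grik and CamK (-0.30, adjusted p = 0.0201).

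Turned cKO values were, in CamK, Cntn5 with the block (0.072); in Grik, Cntn5 with limma-voom (-0.012) and the block (-0.14) and Cntnap4 with DESeq2 (-0.0014), limma-voom (-0.011) and RLE scaling (-0.0012); in SST, Cntn1 with limma-voom (0.031), Cntn3 with the block (-0.075), Cntnap2 with limma-voom (0.0057) and the block (0.014), and Cntnap4 with the populations alone (-0.011), the CPM filter (-0.0067) and limma-voom (-0.033). Leaving out each replicate gave ranges across 0 for Cntn1 in Grik (-0.023 to 0.025) and SST (-0.095 to 0.076), Cntn5 in CamK (-0.27 to 0.043), Cntnap2 in SST (-0.095 to 0.035) and Cntnap4 in Grik (-0.078 to 0.068) and SST (-0.11 to 0.15), and in WT for Cntn4 (-0.28 to 0.068) and Cntnap1 (-0.12 to 0.024) between SST and Grik and Cntn6 between Grik and CamK (-0.16 to 0.11). The causes were not tested.
Over all genes, cKO calls in CamK (2) were 14 with DESeq2, 6 with limma-voom, 4 with the block, 1 with the population alone and 1 to 4 without single replicates. In Grik (2) they were 14, 39, 2, 5 and 1 to 9, and in SST (2) 11, 0, 2, 0 and 0 to 2, with 1 under no filter. Differences of effects were 1 (DESeq2 2, block 0, leaving out replicates 0 to 2) for Grik minus CamK, 0 (DESeq2 10, limma-voom 1, leaving out replicates 0 to 1) for SST minus CamK and 2 (DESeq2 4, leaving out replicates 2 to 3) for SST minus Grik. Genes of the 9 higher at an unadjusted p under 0.05 in CamK were 3 with limma-voom, and 1 to 6 without single replicates. In Grik they were 1 with the population alone or the block, in SST 2 with limma-voom, with ranges of 0 to 1 and 1 to 2 without single replicates.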
